A study of Mus musculus with 8 samples.

Results

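The genes described here are 9 long noncoding RNAs of the astrocyte transcriptome: Malat1, Neat1, Meg3, Miat, Rmst, Snhg11, Mir99ahg, Mir9-3hg and Mir22hg. They were grouped as abundant noncoding transcripts, chosen by their levels and with their regional values in these same libraries known, and were matched by Ensembl gene identifier to 9 of the 55417 gene rows of the count tables. RNA came from flow-sorted astrocytes of the cortex and of subcortical tissue, taken at postnatal day 29 from 4 WT (wild-type) mice. Each mouse gave 1 cortical and 1 subcortical library, which makes 4 libraries per region, and mice 2 and 3 were female and mice 1 and 4 male. The labels name no transgene, reporter or sorting gate, and do not say which structures the subcortical tissue included.

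Long noncoding RNAs are transcribed, and often spliced and polyadenylated, like messenger RNAs but are not known to act through a protein product. Malat1 collects in nuclear speckles, where splicing factors are stored, and its neighbour on chromosome 19, Neat1, is the scaffold RNA of the paraspeckles, another kind of nuclear body. Meg3 is a maternally expressed imprinted gene of the Dlk1-Dio3 region, and Miat is a nuclear RNA known from neurons and retina. Rmst is known from human neural precursors as a partner of the transcription factor SOX2. Snhg11 is a host gene of small nucleolar RNAs. Mir99ahg, Mir9-3hg and Mir22hg are the transcripts from which microRNAs of the same number are cut.

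The primary transcripts of at least 5 of the 9 genes hold microRNA hairpins on the same strand. The hairpins found in the RefSeq microRNA table used here (GRCm38.p6) are not all. GENCODE M21 also has Mir125b-2 overlapping Mir99ahg and Mir1906-1 overlapping Meg3, each on the strand of its host. Of those found in the RefSeq table, 2 lie by gene position in Mir99ahg on chromosome 16 and 2 in Rmst on chromosome 10. Meg3 on chromosome 12, Mir22hg on chromosome 11 and Mir9-3hg on chromosome 7 each hold 1 of them. These table entries give 14 mature microRNAs, and no pair of these 14 shares a seed, the bases that pair with a target. The sequences below are shown because they are among the products by which these host genes are best known, with the seed (bases 2 to 8) in capitals.
miR-99a-5p, from Mir99ahg: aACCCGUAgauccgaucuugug
let-7c-5p, from Mir99ahg: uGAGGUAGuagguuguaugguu
miR-9-5p, from Mir9-3hg: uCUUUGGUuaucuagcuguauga
miR-9-3p, from Mir9-3hg: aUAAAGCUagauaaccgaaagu
miR-22-3p, from Mir22hg: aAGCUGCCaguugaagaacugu
miR-135a-5p, from Rmst: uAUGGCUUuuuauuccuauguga
The libraries held primed poly(A) RNA and did not measure mature microRNAs, so the values given below for these genes are those of the host transcripts.

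The libraries were made by priming at poly(A), and the ends of Malat1 and of the long form of Neat1 are unusual in this respect. Both RNAs are known to end by a cut of RNase P upstream of a tRNA-like structure, at a stretch of A that the genome encodes, while the short form of Neat1 and most other transcripts carry a poly(A) tail added after a signal. The sequences below, from GENCODE M21 transcripts of GRCm38 on the minus strand of chromosome 19, show these ends. In the Malat1 line and in that of the long form the capitals mark the longest run of bases at the end of the long Neat1 transcript that Malat1 also holds, and in the last line they mark the poly(A) signal.
Malat1, up to the shared run: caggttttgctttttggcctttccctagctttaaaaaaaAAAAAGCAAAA
Neat1, long form: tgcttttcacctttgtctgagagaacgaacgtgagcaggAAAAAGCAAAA
Neat1, short form: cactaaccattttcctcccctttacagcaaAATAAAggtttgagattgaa
The shared run has 11 bases and is preceded in Malat1 by more A, which makes a run of 12. The annotated Malat1 transcript goes on for 292 bases after it, and its last 50 bases hold a poly(A) signal. A signal (AATAAA or ATTAAA, sense strand) stood in the last 50 bases of the longest transcript of 7 of the 9 genes, Neat1 and Mir99ahg being those without it, against 42.6% of 10156 long noncoding genes. A run of 10 or more A stood in the longest transcripts of Malat1 and Meg3, against 8.63% of the same genes. Counts per gene do not show at which of these ends a read was primed.

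The cells were checked against marker genes. Gene counts summed to 3537852 to 4060891 per cortical library and to 2484717 to 3829804 per subcortical library. The 16 astrocyte markers, among them the glutamate transporter genes Slc1a2 and Slc1a3, summed to 37957 to 39937 CPM in cortical libraries, against 30965 to 33564 CPM in subcortical libraries, where CPM are counts per 1000000 on library sizes corrected by TMM, the trimmed mean of M-values. Markers of other cells were present at lower levels, and no listed marker was at 0 in all 8 libraries. The 12 oligodendrocyte lineage markers summed to 1093 to 1536 CPM in cortical libraries, against 2552 to 6141 CPM in subcortical libraries, and the 16 neuronal markers to 312.7 to 622.8 CPM, against 149.8 to 236.5 CPM. In the regional test described below, 3 of 9 tested microglial markers (Cx3cr1, Csf1r and C1qa) rose in cortical libraries and none fell, although limma-voom called only C1qa and no microglial marker was called without the cortical library of mouse 2 or 4, the subcortical library of mouse 3, or mouse 1, 3 or 4. Of 14 neuronal markers Nrgn and Slc17a7 rose and Nefl fell. Endothelial and mural markers summed to 460.2 to 1004 CPM in cortical libraries, against 322.0 to 1165 CPM in subcortical libraries. Of the 5 tested, 0 were called. These sums were mostly mural, since Rgs5 alone averaged 487.4 CPM in cortex, against 401.3 CPM in subcortical tissue. Endothelial markers stood far lower. The highest of these was Flt1, with a mean of 4.53 CPM in cortex, against 2.65 CPM in subcortical tissue. No endothelial marker other than Flt1 was tested. Ependymal and choroid plexus markers summed to 22.5 to 67.8 CPM in cortical libraries, against 49.3 to 76.9 CPM in 3 subcortical libraries and 664.6 CPM in that of mouse 3. By far the widest subcortical spread among them was that of Ttr, which was not tested, at 152.9 ± 303.4 CPM (SD, n = 4). The next highest was Foxj1, at 33.2 ± 7.0 CPM. Foxj1 was the 1 of 4 tested that was called, as lower in cortex. The 16 astrocyte markers themselves split, 4 rising and 4 falling in cortical libraries. In sorted bulk samples, fewer cells of a type and less RNA per cell cannot be told apart.

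Malat1 stood far above all other members, and the label abundant held for only some of the 9. Averaged over the 8 libraries, Malat1 had 51408 CPM and ranked first among all genes of the tables, with a rank between 1 and 4 in each library. Mir99ahg followed at 868.6 CPM, the second of the long noncoding genes. Neat1 at 208.1 CPM was 10th, Rmst at 147.7 CPM was 12th, Meg3 at 88.0 CPM was 24th and Mir9-3hg at 42.4 CPM was 49th. Snhg11 at 12.6 CPM, Mir22hg at 10.5 CPM and Miat at 10.004 CPM ranked 141st, 173rd and 179th, Miat being the last of the 179 long noncoding genes with at least 10 CPM on average. Xist, Kcnq1ot1, Snhg9 and Pantr1, which are not among the 9, were on these means more abundant than 7 of them. The mean of Xist came from the female libraries, at 945.2 to 1488 CPM, against 5.50 to 17.7 CPM in the male ones. Just above Miat among the listed noncoding genes stood Mir22hg, and just below it stood Trp53cor1 at 9.77 CPM. Snhg11 is typed as protein coding in GENCODE M21, against its place in the group. Priming at poly(A) is meant to sample a transcript's end, so these levels are not divided by length. Whether runs of A inside a transcript, such as the 6 runs of 10 or more A in Meg3, were also primed was not tested.

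In this order of levels, the 8 values of Malat1 lay wholly above those of Mir99ahg, and those of Mir99ahg wholly above those of Neat1. The ranges of Neat1 and Rmst overlapped, as did those of Rmst and Meg3. Meg3, with 72.0 to 124.6 CPM, lay wholly above Mir9-3hg, with 21.5 to 55.9 CPM. The 3 least abundant genes, Snhg11, Mir22hg and Miat, overlapped throughout.

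**Figure D1:**
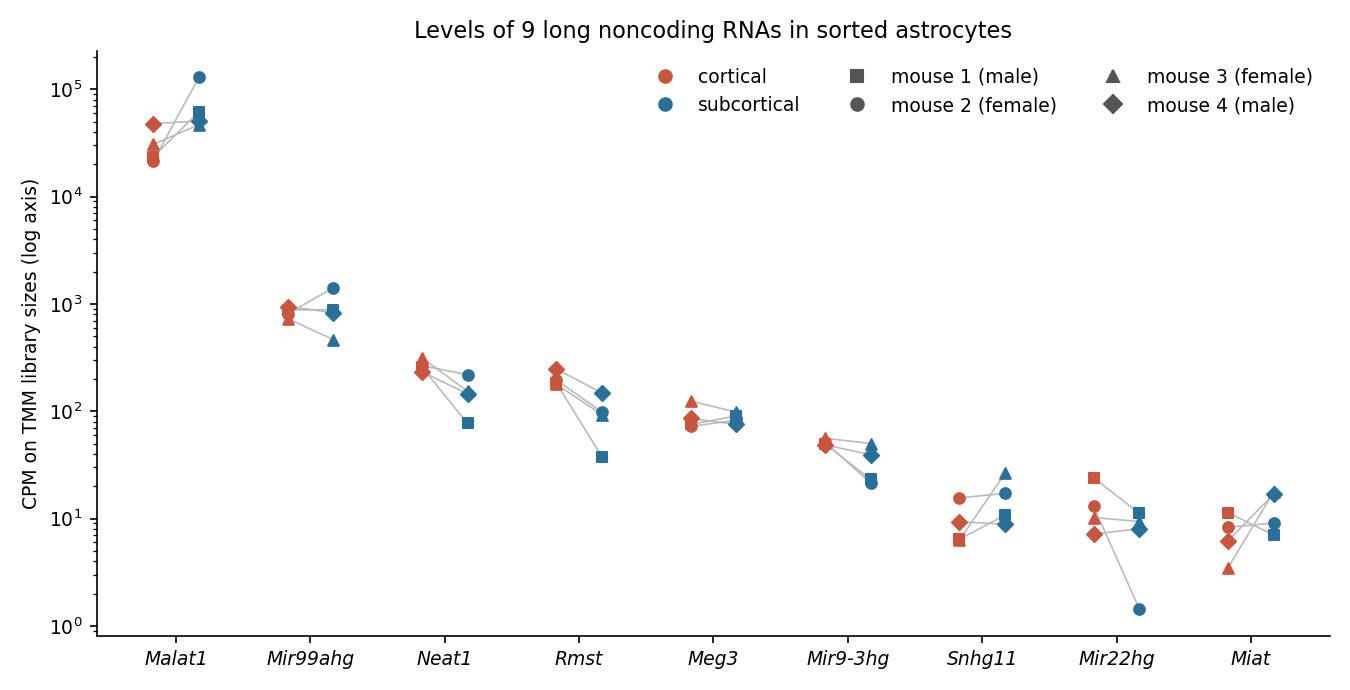
CPM on TMM library sizes (log axis) of the 9 genes in the 4 cortical (red) and 4 subcortical (blue) libraries, with a marker shape for each mouse and a line joining the libraries of 1 mouse. All 4 lines of Malat1 rise towards the subcortical side and all 4 of Neat1, Rmst and Mir9-3hg fall, while those of Meg3 and Mir99ahg go both ways.

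The comparison of regions asked how the levels in cortical astrocytes differ from those in subcortical astrocytes. Of the 9 genes, all of which passed the filter on low counts, Neat1 and Rmst were higher and Malat1 was lower in cortical libraries at an adjusted p of 0.05 (edgeR's quasi-likelihood test, 4 libraries against 4, Benjamini-Hochberg adjustment over all 11781 tested genes). Over all tested genes 6.81% were called, 3.42% (403 genes) higher and 3.39% (399 genes) lower. With raw library totals in place of TMM, which moves the median log2 fold change of all genes from -0.01 to 0.19, the split was 682 higher and 244 lower, and the calls of the 3 genes and their directions were unchanged. Among the 492 tested genes with a long noncoding type, 5.69% were called, 22 higher and 6 lower. The fits above, and those below with a library or a mouse left out, did not use the pairing by mouse. With the mouse as a block and all 8 libraries, the edgeR adjusted p was 0.0077 for Malat1, 0.0044 for Neat1 and 0.00086 for Rmst. Blocked fits with a library or a mouse left out were not run. The 9 genes were selected on these data, so their own count describes them and is not evidence that they differ from other genes.

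Malat1 made up 2.68, 2.26, 3.26 and 4.92% of all gene counts in the cortical libraries of mice 1 to 4, against 5.50, 10.9, 4.94 and 4.77% in their subcortical libraries. The cortical library of mouse 4 and the subcortical library of mouse 2 stood above the other libraries of their regions, and the regions overlapped. On the TMM scale the values were 23405, 21319, 30655 and 47834 CPM in cortical libraries, against 61625, 129131, 46747 and 50551 CPM in subcortical libraries. All 4 mice then had the lower value in cortex, by a factor of 2.63, 6.06, 1.52 and 1.06 from mouse 1 to mouse 4, whereas by share of raw counts mouse 4 was slightly higher in cortex. The fitted log2 fold change was -1.23 (SE 0.27, edgeR adjusted p = 0.0045).

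The size of the Malat1 difference rested on 1 mouse. Without the subcortical library of mouse 2 the log2 fold change was -0.78 (edgeR adjusted p = 0.020). Without both libraries of mouse 2 it was -0.64 (adjusted p = 0.072), and without mouse 1 it was -1.18 (adjusted p = 0.056), so that the call was lost in both cases. DESeq2 gave -1.23 (SE 0.48) with an adjusted p of 0.10 and made no call.

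**Figure D2:**
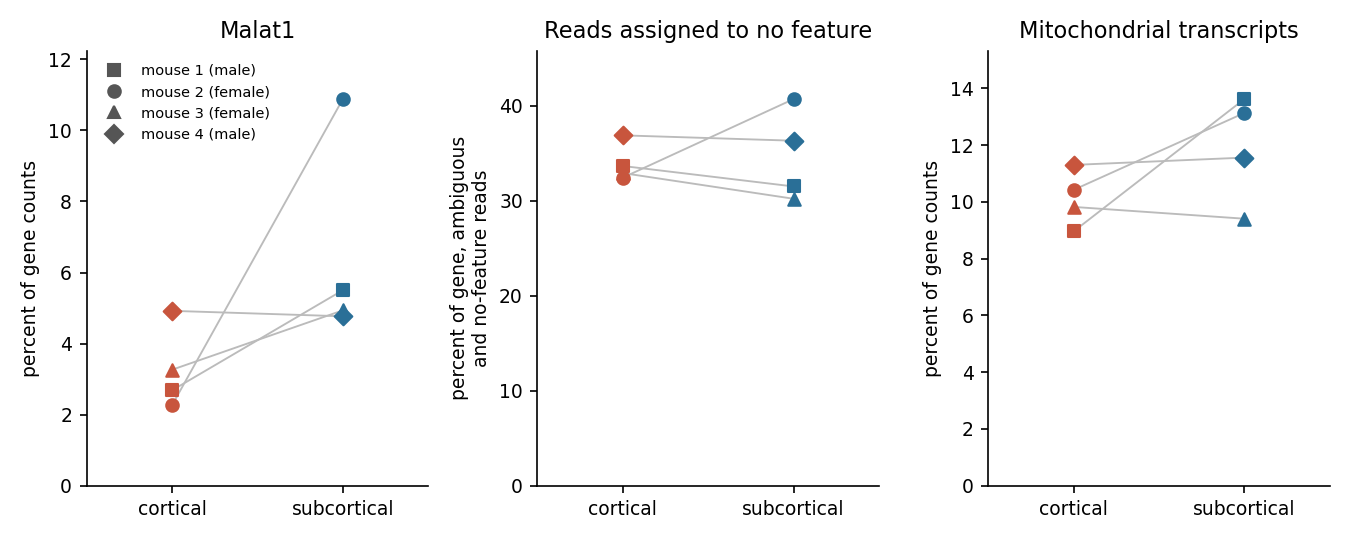
Malat1 counts as a percent of gene counts (left), reads assigned to no annotated feature as a percent of gene, ambiguous and no-feature reads (middle) and mitochondrial transcripts as a percent of gene counts (right), by library, with cortical libraries in red, subcortical libraries in blue and lines joining the libraries of a mouse. The subcortical library of mouse 2 is highest for Malat1, at 10.9%, and for no-feature reads, at 40.7%.

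Other measures also differed between the libraries. The subcortical library of mouse 2 had the highest share of reads assigned to no feature, 40.7%, against 30.2 to 36.3% in the other subcortical libraries. In the cortical group the library of mouse 4 was highest for Malat1 and also for such reads, at 36.9%, against 32.4 to 33.7% in the other cortical libraries. Within mice 1, 3 and 4, however, the share of such reads was higher in cortex, and the subcortical library of mouse 4 combined 36.3% of such reads with the lowest subcortical Malat1 share. Mitochondrial transcripts took 8.95 to 11.3% of cortical and 9.40 to 13.6% of subcortical gene counts, and 8 of 11 tested oligodendrocyte lineage markers were lower and none higher in cortical libraries. The oligodendrocyte sum was highest not in mouse 2 but in the subcortical library of mouse 1, at 6141 CPM. The part of these measures in the Malat1 difference, and that of the marker sums in the differences of Neat1 and Rmst below, was not tested.

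With Malat1 included, the 9 genes together took 3.44 ± 1.17% of gene counts in cortical libraries and 6.64 ± 2.95% in subcortical libraries (SD, n = 4 each). Without Malat1 the other 8 took 0.159 ± 0.0090% in cortical and 0.119 ± 0.027% in subcortical libraries (SD, n = 4 each). Malat1 alone was 63.5 to 79.9% of all long noncoding counts in cortical libraries, against 81.4 to 89.7% in subcortical libraries, which did not overlap. The long noncoding genes outside the 9 took 1.08 to 1.16% in cortical libraries, against 0.775 to 1.10% in subcortical libraries. These shares are descriptions, with no test.

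Neat1, the neighbour of Malat1, differed in the opposite direction. It had 256.8, 266.3, 315.5 and 232.6 CPM in the cortical libraries of mice 1 to 4, against 76.9, 218.2, 153.1 and 145.3 CPM in their subcortical libraries. The regions did not overlap, the subcortical library of mouse 1 was the lowest, and all 4 mice were higher in cortex. In the fit its log2 fold change was 0.85 (SE 0.23, edgeR adjusted p = 0.021). The call was lost without the cortical library of mouse 1 or 3, without the subcortical library of mouse 1 or 4, and without mouse 1 or 3, with adjusted p between 0.051 and 0.14 and a log2 fold change between 0.64 and 0.87.

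Rmst had 183.6, 195.3, 178.5 and 247.2 CPM in the cortical libraries of mice 1 to 4, against 37.6, 98.4, 93.1 and 147.8 CPM in their subcortical libraries. The regions did not overlap, and mouse 4 was the highest and mouse 1 the lowest of the subcortical libraries. Its fitted log2 fold change was 1.09 (SE 0.27, edgeR adjusted p = 0.012), and the ratio within a mouse ran from 1.67 in mouse 4 to 4.88 in mouse 1. Without mouse 2 or mouse 3 the log2 fold change stayed at 1.12 and 1.13, with adjusted p of 0.056 and 0.059. Neat1 and Rmst were the only 2 of the 9 whose regions did not overlap in CPM, against 12.2% of all tested genes.

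**Figure D3:**
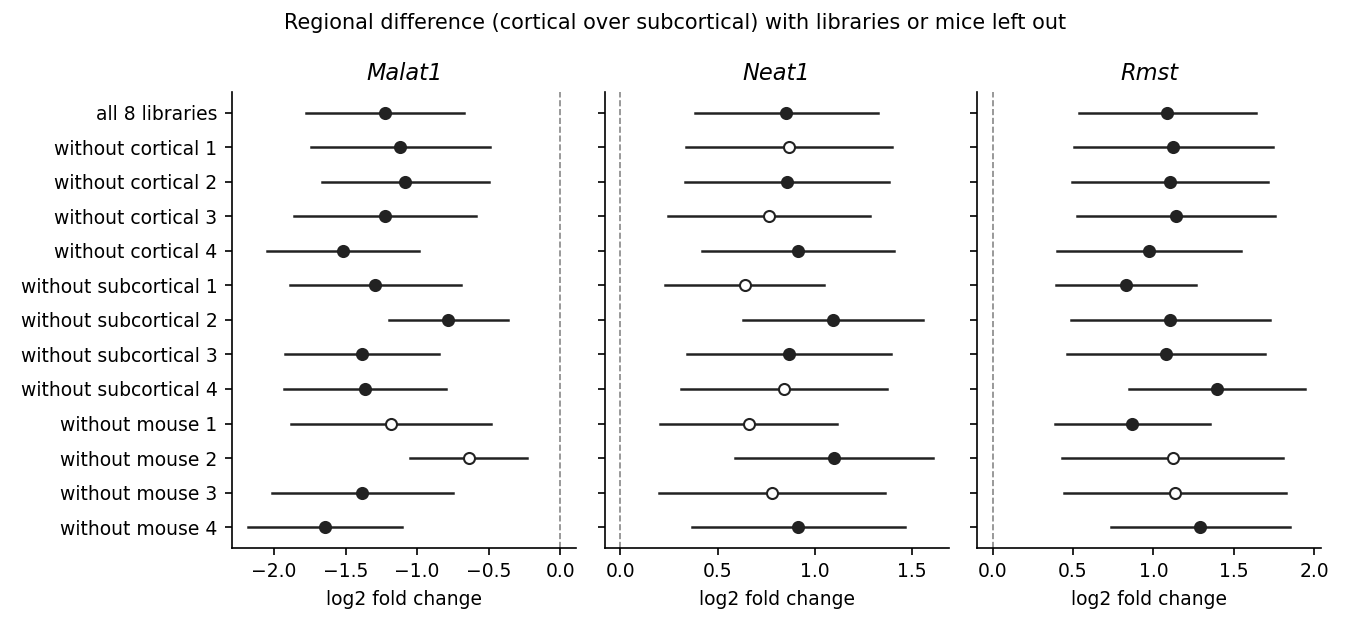
Log2 fold change (cortical over subcortical) of Malat1, Neat1 and Rmst with its 95% interval from edgeR, for all 8 libraries and with each library or mouse left out; filled points have an adjusted p under 0.05. Malat1 lies closest to 0 without mouse 2, at -0.64, and Neat1 without the subcortical library of mouse 1, at 0.64.

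None of Mir9-3hg, Mir99ahg and Mir22hg was called by region. Mir9-3hg had 49.5, 51.6, 55.9 and 48.6 CPM in the cortical libraries of mice 1 to 4, against 23.2, 21.5, 50.004 and 39.3 CPM in their subcortical libraries. It was higher in cortex in all 4 mice, with nearly the same level in every cortical library and a wide spread among the subcortical ones, which reached the cortical range in mouse 3. The log2 fold change of 0.61 (SE 0.27, 95% interval 0.04 to 1.17) had an unadjusted p of 0.036 in edgeR and an adjusted p of 0.24, and so did not pass.

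Mir99ahg had 877.2, 809.1, 728.9 and 945.1 CPM in the cortical libraries of mice 1 to 4, against 882.4, 1411, 465.3 and 830.0 CPM in their subcortical libraries. The subcortical values of mice 2 and 3 were the highest and the lowest of all 8, with the cortical values between them. The fit gave a log2 fold change of -0.09 (SE 0.22, 95% interval -0.56 to 0.37, edgeR adjusted p = 0.90).

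Mir22hg had 23.9, 13.0, 10.2 and 7.18 CPM in the cortical libraries of mice 1 to 4, against 11.2, 1.43, 9.38 and 8.03 CPM in their subcortical libraries. The subcortical value of mouse 2, which rests on 3 reads, was the lowest value of any of the 9 genes in any library. For Mir22hg the log2 fold change was 0.84 (SE 0.55, 95% interval -0.30 to 1.98, edgeR adjusted p = 0.50).

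Counts for host genes also depend on genes annotated inside them. In GENCODE M21, 13 genes that overlap Mir99ahg had counts, 11 of them on its own strand, and they summed to 7338 counts beside the 23197 of Mir99ahg. None of the 8 that could be tested was called by region, with log2 fold changes between -0.55 and 0.55. Within Mir9-3hg the same-strand transcript 2900037B21Rik had 2112 counts, more than the 1231 of Mir9-3hg, and stood at 85.8 ± 48.3 CPM in cortical libraries, against 65.4 ± 32.0 CPM in subcortical libraries (SD, n = 4 each). Its log2 fold change was 0.40 (SE 0.37, edgeR adjusted p = 0.66). The coding gene Tlcd2 shares its strand with Mir22hg and had 37 counts, too few to be tested. It stood at 0.18 ± 0.12 CPM in cortical libraries, against 3.12 ± 0.81 CPM in subcortical libraries (SD, n = 4 each), which did not overlap and lay in the direction opposite to the means of Mir22hg. Reads from such shared stretches could be given to either gene or set aside as ambiguous, so the levels of these hosts are uncertain. No counts were found for the genes annotated opposite to Malat1, Meg3, Miat and Rmst, but whether each has a row in the count tables was not checked. The sources used here do not say whether reads were counted by strand.

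Meg3 had 75.4, 72.0, 124.6 and 85.7 CPM in the cortical libraries of mice 1 to 4, against 90.1, 82.6, 97.9 and 75.3 CPM in their subcortical libraries. Mouse 3 was highest in both regions. For Meg3 the log2 fold change was 0.05 (SE 0.21, 95% interval -0.38 to 0.48, edgeR adjusted p = 0.95), and this interval includes modest changes in either direction. The other genes of its imprinted region were scarce: Dlk1 had 203 counts over all libraries, the microRNA and small nucleolar RNA hosts Mirg and Rian 19 and 12, Dio3 28 and Rtl1 0. Only Meg3 and Dlk1 of these 6 could be tested, and neither was called.

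Miat had 11.3, 8.29, 3.48 and 6.22 CPM in the cortical libraries of mice 1 to 4, against 7.03, 9.07, 17.7 and 16.9 CPM in their subcortical libraries. The subcortical libraries of mice 3 and 4 stood above all others. The regional log2 fold change of Miat, -0.80 (SE 0.51, 95% interval -1.86 to 0.26, edgeR adjusted p = 0.48), did not pass.

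Snhg11 had 6.41, 15.5, 6.27 and 9.33 CPM in the cortical libraries of mice 1 to 4, against 10.8, 17.2, 26.4 and 8.86 CPM in their subcortical libraries. Mouse 3 had one of the lowest cortical values and the highest subcortical value. The log2 fold change was -0.75 (SE 0.46, 95% interval -1.71 to 0.21, edgeR adjusted p = 0.46). Miat, Snhg11 and Mir22hg had 267, 322 and 307 counts over all 8 libraries, and had the widest intervals of the 9.

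**Figure D4:**
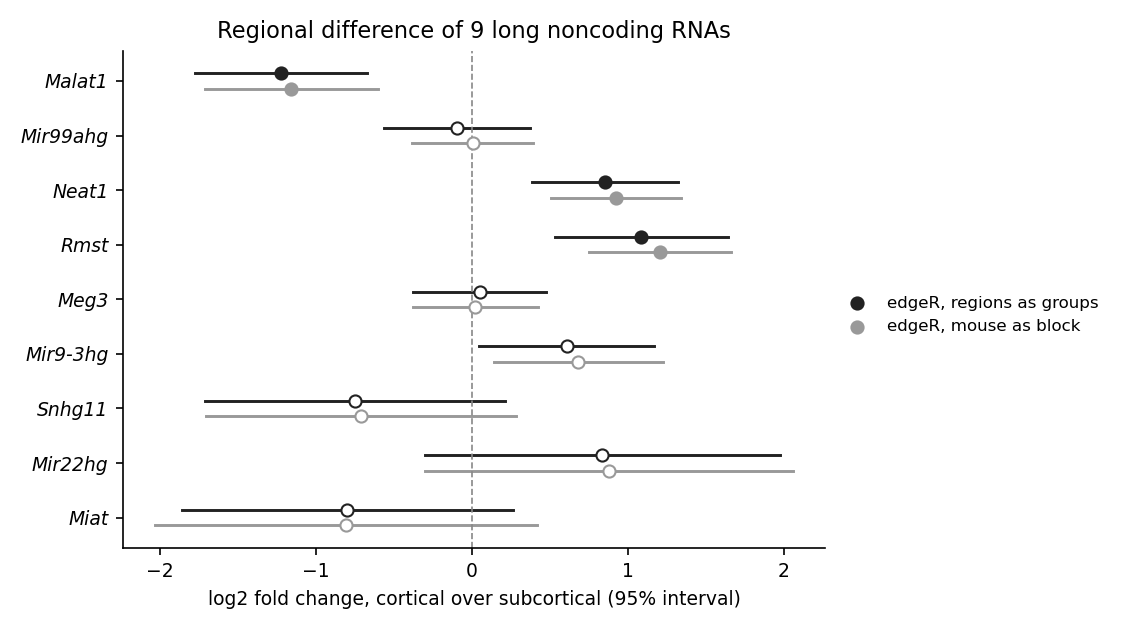
Log2 fold change (cortical over subcortical) of the 9 genes with its 95% interval, ordered by mean level from top to bottom, from edgeR with the regions as groups (black) and with the mouse as a block (grey); filled points have an adjusted p under 0.05. Malat1 at -1.23, Neat1 at 0.85 and Rmst at 1.09 are filled in both fits, and the intervals of the least abundant genes are the widest.

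The spread of a gene between libraries of 1 region, beyond counting noise, differed among the 9. The biological coefficient of variation estimated by edgeR draws the value of each gene towards those of genes of similar level. It was 0.21 for Meg3, 0.23 for Neat1 and 0.24 for Mir99ahg, against a median of 0.34 over all tested genes. Malat1 stood at 0.29, and Miat and Mir22hg at 0.47 to 0.50. For Malat1 the SD within each region, given below, was larger relative to its mean. The most abundant gene thus did not have the smallest spread. Neat1, Rmst, Mir99ahg and Mir9-3hg had an SD of 38.9 to 47.8% of the mean in subcortical libraries, against 6.35 to 15.7% in cortical libraries, and the subcortical value was the larger with any 1 library left out. Meg3 went the other way, with 11.3% in subcortical and 27.0% in cortical libraries, but 9.15% in cortical libraries without that of mouse 3. In the same order Miat had 42.7 and 45.2%, Snhg11 50.1 and 46.2%, and Mir22hg 56.6 and 53.7%. Spread by region was not compared over all tested genes. For Malat1 the SD was 53.6% of the mean in subcortical libraries, against 39.1% in cortical libraries, but 14.6% in subcortical libraries without that of mouse 2.

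Each gene was also set beside the coding and named noncoding genes whose log2 CPM, centred on its mean, followed it most closely over the 8 libraries, among 5758 genes with at least 20 CPM. For Malat1 the nearest was Kcnq1ot1, the antisense RNA of the imprinted Kcnq1 locus, at a root mean square difference of 0.25 (log2), followed by Rgs6, a regulator of G protein signalling, at 0.32. Kcnq1ot1 had 166.6, 167.4, 196.4 and 255.9 CPM in the cortical libraries of mice 1 to 4, against 280.7, 698.6, 248.6 and 349.9 CPM in their subcortical libraries. As for Malat1, the subcortical library of mouse 2 was the highest. The nearest to Neat1 were Sympk and Crlf3 (both 0.26), to Rmst Fam168b (0.22), and to Meg3 Ints3 (0.087) and Polr2e (0.13). Mir99ahg was closest to Fbxw2 (0.14) and Smg6 (0.15), Mir9-3hg to Decr1 (0.18) and Mtmr9 (0.19), and Mir22hg to Aacs (0.33) and Mgat4b (0.38). Miat was closest to Eif4e (0.29) and Pcx (0.29), and Snhg11 to Fam3c (0.28) and Mxra8 (0.30). These distances are descriptions, with no test.

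Other long noncoding RNAs that were listed by name gave 5 calls among 35 tested genes, 3 higher and 2 lower in cortical libraries. Over all tested genes 6.81% were called, and 5.69% of those with a long noncoding type. The list was chosen with earlier results known, so its count is a description. The median log2 fold change of the list was 0.12, against -0.01 over all tested genes. Pantr1, which lies beside the neural transcription factor gene Pou3f3, had 340.9 ± 44.0 CPM in cortical libraries, against 90.7 ± 14.9 CPM in subcortical libraries (SD, n = 4 each; log2 fold change 1.91, SE 0.18, edgeR adjusted p = 1.7e-07). Emx2os, the antisense RNA of the homeobox gene Emx2, had 224 counts in the cortical libraries and 1 in the subcortical ones, a ratio of 150.3 after scaling for library size (95% counting interval 26.7 to 5962). This interval pools the reads of a region and leaves out differences between mice, whose cortical values ran from 5.80 to 21.3 CPM. In the fit the log2 fold change of Emx2os was 6.79 (SE 0.98, edgeR adjusted p = 7.2e-05). C130071C03Rik on chromosome 13, which holds another hairpin of miR-9, Mir9-2, had 143.5 ± 25.9 CPM in cortical libraries, against 92.8 ± 12.9 CPM in subcortical libraries (SD, n = 4 each; log2 fold change 0.63, SE 0.19, edgeR adjusted p = 0.046). Its call was lost in 9 of the 12 fits that left out a library or a mouse, and with all libraries thinned to the smallest, while Pantr1 and Emx2os were called in all 12.

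Kcnq1ot1 (log2 fold change -1.003, SE 0.25, edgeR adjusted p = 0.015) and Snhg14 (-0.88, SE 0.25, adjusted p = 0.030), a long transcript of the imprinted Snrpn and Ube3a locus, fell in cortical libraries. Snhg14 had 45.6, 54.4, 40.6 and 67.0 CPM in the cortical libraries of mice 1 to 4, against 62.8, 135.1, 73.6 and 111.0 CPM in their subcortical libraries. The subcortical library of mouse 2 was again the highest. Of 6 RNAs known to stay in the nucleus (Malat1, Neat1, Meg3, Miat, Xist and Kcnq1ot1), Neat1 was thus higher and Malat1 and Kcnq1ot1 were lower in cortical libraries. Malat1, Neat1, Meg3 and Miat are among the 9 selected genes, so these calls only describe the list, beside 6.81% called over all tested genes. Without the subcortical library of mouse 2 neither Kcnq1ot1 nor Snhg14 was called, and DESeq2 called 1 of them, Snhg14. Without any one of the cortical libraries of mice 1, 2 and 3 neither was called, and over the 12 fits that left out a library or a mouse Kcnq1ot1 lost its call in 6 and Snhg14 in 9.

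Genes for the proteins that work with these RNAs gave no calls in edgeR with TMM library sizes, beside 6.81% called over all tested genes. At that share lists of these sizes would hold few calls, so their counts are descriptions. Of 18 tested genes for paraspeckle proteins, which assemble on Neat1, none was called (median log2 fold change -0.11). Sfpq, an essential paraspeckle protein gene, had 105.9 ± 17.7 CPM in cortical libraries, against 115.0 ± 16.4 CPM in subcortical libraries, and Nono, its partner, had 13.0 ± 5.1 CPM in cortical libraries, against 15.9 ± 4.7 CPM in subcortical libraries (SD, n = 4 each). Of 24 tested genes for nuclear speckle and splicing proteins none was called (median 0.05), but DESeq2, and edgeR with raw library totals, called 1 of them, the splicing regulator gene Celf2, as higher in cortex. Of 15 tested genes for microRNA processing and its effectors none was called (median -0.08). Dicer1, the enzyme gene for the final cut of microRNA precursors, had 33.2 ± 12.3 CPM in cortical libraries, against 46.6 ± 10.8 CPM in subcortical libraries (SD, n = 4 each, edgeR adjusted p = 0.41). Sfpq, Nono and Dicer1 were picked after their values had been seen, as the best known of their lists.

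The sexes were compared on counts summed per mouse, 2 females against 2 males. Xist, which is transcribed from the inactive X chromosome of females, matched the labels, with 945.2 to 1488 CPM in the 4 female libraries, against 5.50 to 17.7 CPM in the 4 male libraries. None of the 9 genes was called, against 0.0373% of 13402 tested genes (5 genes). Over all tested genes 500 had an edgeR unadjusted p under 0.05, and so had 1 of the 9. That gene was Neat1, with 242.3 and 234.3 CPM as means of both regions in female mice 2 and 3, against 166.9 and 189.0 CPM in male mice 1 and 4. The female values did not overlap the male ones, but 2 mice per sex can readily separate by chance, and the share of all genes that do was not counted. Its log2 fold change, female over male, was 0.39 (SE 0.18, edgeR unadjusted p = 0.045, adjusted p = 1.0). Snhg11 had 16.4 and 16.3 CPM as means of both regions in the females, against 8.58 and 9.10 CPM in the males (log2 fold change 0.83, SE 0.43, edgeR unadjusted p = 0.075, adjusted p = 1.0). The close female means hide different regions. In cortex female mouse 2 had 15.5 CPM, but female mouse 3 had 6.27 CPM, below males 1 and 4 at 6.41 and 9.33 CPM. In subcortical libraries mouse 3 had 26.4 CPM and mouse 2 had 17.2 CPM. DESeq2 called none of the 9 genes either.

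Whether the regional difference itself differed between the sexes was tested as an interaction in 1 fit over all 8 libraries. None of the 9 genes was called, and of 13334 tested genes 0% were called (502 had an unadjusted p under 0.05, and limma-voom also called 0). Malat1 was the only one of the 9 with an unadjusted p under 0.05. Its log2 fold change between regions was -1.75 (SE 0.34) in females and -0.66 (SE 0.33) in males, a difference of -1.09 (SE 0.47, edgeR unadjusted p = 0.028, adjusted p = 1.0). The 2 females were far apart, with cortical over subcortical ratios of 0.165 in mouse 2 and 0.656 in mouse 3. Without the subcortical library of mouse 3 the interaction of Malat1 was called (-1.64, edgeR adjusted p = 0.014), and without that of mouse 2 it was -0.18 (adjusted p = 1.0). Each of these fits left 1 female subcortical library, assumed to vary like the other groups, so that the call rested on mouse 2 as the only subcortical female.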

How the data were processed

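Per the labels' protocols, lysates went through the RNeasy Plus Micro kit and then the forward QuantSeq 3′ library kit, which primes at poly(A). Among the tools in the submitters' processing notes are STAR 2.6.0 and HTSeq 0.9.0, with the build GRCm39. Raw read counts per gene, as deposited by the authors, were used without change, and HTSeq's summary rows were left out. A deposited table of normalized values was not used. Samples were grouped by region, sex and mouse from their titles.

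Region was tested with edgeR 4.0.16 (R 4.3.3; filterByExpr at 10 counts, TMM, quasi-likelihood test, Benjamini-Hochberg at 0.05), checked on simulated data. That simulation gave every gene the same spread and had no mouse effect. All its changed genes were more abundant than Miat, Snhg11 and Mir22hg, so it does not cover changes at their levels. DESeq2 1.42.0, limma-voom 3.58.1, other scalings and filters, thinning, a sex covariate and each library or mouse left out were alternatives. Leaving libraries out of the shares, the gene lists and the spread within a region was added after the data were seen. Symbols, gene types and transcript sequences came from GENCODE M21 (GRCm38) and microRNAs from RefSeq, so no coordinates are given. The members and all gene lists were chosen with earlier results of these data known. Named were all 9 members, up to 6 called genes per other list, 2 nearest genes per member and the genes beside the least abundant member; 1 gene so chosen is not reported here.

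The mouse numbers pair the samples, since both libraries of a number came from 1 animal. Deviations from the region means correlated over genes at 0.023 to 0.066 within a mouse and at -0.099 to 0.056 between mice. Counting error alone limits a library at 0 counts to 3 counts, 0.739 to 1.21 CPM of raw totals. Replicates are different mice.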

Additional observations from a re-analysis of the deposited data

How the results depend on the processing

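With the mouse as a replicate block, Malat1 (-1.16), Neat1 (0.93) and Rmst (1.21) were called as in the unblocked fit, and the block changed no other regional call of the 9 genes. The block gave 1 called gene for the interaction, none of the 9. Every other scaling, filter, covariate, thinning and test called 2 members higher and 1 lower, except that DESeq2 called 0 lower. With libraries or mice left out, 0 to 2 were called higher and 0 to 1 lower, and 474 to 775 of all genes were called by region. By sex 12 to 30 of all genes were then called, and by interaction 1 to 2, with 0 to 1 member lower. Of the other long noncoding RNAs 0 to 2 were then lower (DESeq2 1), and of the nuclear speckle genes DESeq2, and edgeR with raw library totals, called 1 higher. Small values changed sign: Meg3 ran from -0.15 to 0.14 and Mir99ahg from -0.31 to 0.23 with libraries or mice left out, Mir99ahg was 0.15 with raw library totals, 0.024 in limma-voom and 0.0076 with the block, and Malat1 by sex ran from -0.21 to 0.45. The cause was not tested. The summed share of the 9 genes, cortical minus subcortical, was -3.20 percentage points, -1.98 to -4.77 with other denominators and -3.78 to -1.73 with a library left out. Thinned to the smallest library, the SE was 0.53 for Miat, 0.46 for Snhg11 and 0.56 for Mir22hg, against 0.51, 0.46 and 0.55 at full depth; what deeper libraries would give was not tested.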
